A study of Mus musculus with 14 samples.

Results

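Livers of diet-induced obese C57BL/6J mice that received a short hairpin RNA (shRNA) against Jnk1 in a viral vector were compared with livers of obese mice of the same strain that received vehicle. Every array whose label names one of these treatments was used, 5 of each kind, or 10 of the 14 arrays of the series. The remaining 4 arrays hold obese liver that received a hairpin against green fluorescent protein (GFP) in the same kind of vector, and their values are given beside those of the Jnk1 virus. The vector is labelled Adv, read here as adenovirus. Mice of the vehicle group received no virus, so these 10 arrays hold the response of obese liver to a virus together with the effect of the hairpin, and both cannot be told apart within them. No lean liver and no untreated liver was compared. The series title calls the knockdown liver-specific; virus dose, route, time after treatment, age and sex were not stated in the labels. Nor is it stated that each array holds a separate mouse, so the p-values cover only the spread between these samples, which may be technical.

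JNK1, encoded by Mapk8, is a protein kinase that stress, cytokines and fatty acids switch on through the upstream kinases MKK4 and MKK7, and it phosphorylates the transcription factor c-Jun. In the liver of obese mice JNK activity is raised, and it is known for its effects on insulin signalling. Adenoviral vectors in the blood are taken up by liver macrophages (Kupffer cells) and by hepatocytes, where viral nucleic acid can be sensed and interferons induced. An shRNA is processed in the cell into a short guide that lowers the matching messenger RNA.

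RNA was measured as probe set intensities on a 1-colour mouse expression array of 22690 probe sets. Intensities are given after quantile normalization, and every difference is the Jnk1 shRNA mean minus the vehicle mean of log2 intensity, with its standard error (SE), unless another pair is named. A probe set was called changed, and is said to have risen or fallen, at a limma adjusted p under 0.05. After the dimmest 40% were left out, 13576 probe sets of 8027 genes were tested. A group mean under 28.4, the lowest mean intensity kept, is near the dim end of the array, and a fold against it is uncertain in size. Where the values of single arrays are given they follow the numbers of the labels, and the 5 vehicle and 5 Jnk1 shRNA arrays do not overlap unless it is said. Liver is a mixture of cells, and fewer cells of a type and less RNA per cell cannot be told apart.

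Correlations between arrays of 1 group lay between 0.961 and 0.97 for vehicle, between 0.942 and 0.967 for GFP shRNA and between 0.976 and 0.981 for Jnk1 shRNA. The level of the 18 spike-in control probe sets, RNA added in the laboratory, was lower with the Jnk1 virus, with log2 intensities of 8.89, 8.88, 8.77, 9.03 and 8.98 on the vehicle arrays and 7.89, 8.76, 8.31, 8.35 and 8.5 on the Jnk1 shRNA arrays (difference -0.55, exact two-sided permutation p = 0.00794, the smallest that 5 against 5 arrays can give, 0.0317 after adjustment over 4 quality measures). All 5 Jnk1 shRNA arrays lay below the lowest vehicle array. The GFP shRNA arrays read 8.83, 8.85, 8.93 and 9.01, also above every Jnk1 shRNA array. Differences between the Jnk1 and the GFP virus therefore hold this spike-in difference too, and the effects cannot be told apart. The 18S ribosomal RNA probe set at the 5′ end ranged from 52 to 1976 on the Jnk1 shRNA arrays and from 851 to 1324 on the vehicle arrays (exact two-sided permutation p = 0.31), and the 3′ to 5′ ratios of Gapdh averaged 0.735 and 0.702 (exact p = 0.0873). Fitting the level of the spike-ins as a covariate gave 2858 calls across the array in place of 5099 (37.6% of the probe sets tested), and 2593 calls were made by both fits. Of the genes named here, Adgre1, Apoa1, Bcl6, Cdt1, Cps1, Creld2, Dusp16, Fcer1g, Fcgr1, Folr2, Foxo3, Gadd45a, Ghr, Gzmb, Hspa5, Krt18, Lbp, Map3k5, Myc, Npc1, Pck1, Pik3r1, Prkra, Sesn2, Srebf1, Tarbp2, Thy1 and Ugt2b38 were no longer called in that fit. Where the rises and falls in a gene list moved by over 1.5 times in that fit, or on arrays not quantile-normalized (as deposited, or brought to equal medians), those counts stand in parentheses beside the list's own, rises first. The part of the spike-in difference in the results was not tested further. Hepatocyte markers were bright in both groups, with mean intensities of 5475 and 5528 for Alb (serum albumin) and 5387 and 5464 for Ahsg (fetuin A) in vehicle and Jnk1 shRNA liver. Of the 8 markers, Tat (tyrosine aminotransferase), Hnf4a, Apoa1 and Cps1 fell, by 1.10, 0.58, 0.18 and 0.12, and Alb, Ahsg, Ttr and Serpinc1 were not called. On their brightest probe sets the calls of Apoa1 and Cps1 were lost in the spike-in fit, without a trend in eBayes and with no filter, and without Jnk1 shRNA array 3 or 4. That of Cps1 was also lost without vehicle array 3, 4 or 5 or Jnk1 shRNA array 2 or 5. The dimmer Apoa1 probe sets were called in the main fit, with differences of -0.63, -0.35 and -0.21. On the arrays as deposited, Alb, Ahsg, Ttr and Serpinc1 were called lower, by 0.43, 0.38, 0.42 and 0.38.

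Mapk8 was lower with the Jnk1 virus on all 3 of its kept probe sets. Its brightest probe set read 186, 184, 149, 185 and 185 on the vehicle arrays and 65.5, 58.8, 82.2, 68.2 and 63.2 on the Jnk1 shRNA arrays. These groups do not overlap, and the Jnk1 shRNA mean was 37.9% of the vehicle mean (difference -1.40, SE 0.10, adjusted p = 4.40e-08, exact two-sided permutation p = 0.00794). The other probe sets stood at 49.6% and 70.2% of vehicle, with differences of -1.01 (SE 0.20) and -0.51 (SE 0.14), and neither overlapped with vehicle. The Jnk1 shRNA mean of the 49.6% probe set was 24.1, near the dim end of the array, so the size of its fall is uncertain. The 37.9% probe set read 162, 166, 182 and 159 on the GFP shRNA arrays, within the vehicle range. On the probe set of smallest change the GFP shRNA arrays read 69.2, 44.7, 54.6 and 45.2, across the ranges of vehicle (74.1, 70.5, 68.6, 70.8 and 61.4) and of the Jnk1 virus (52.3, 51.4, 49.8, 43.4 and 45.9), and the Jnk1 minus GFP virus difference was -0.12 (adjusted p = 0.561). Where along Mapk8 the probes lie was not analysed here.

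**Figure D1:**
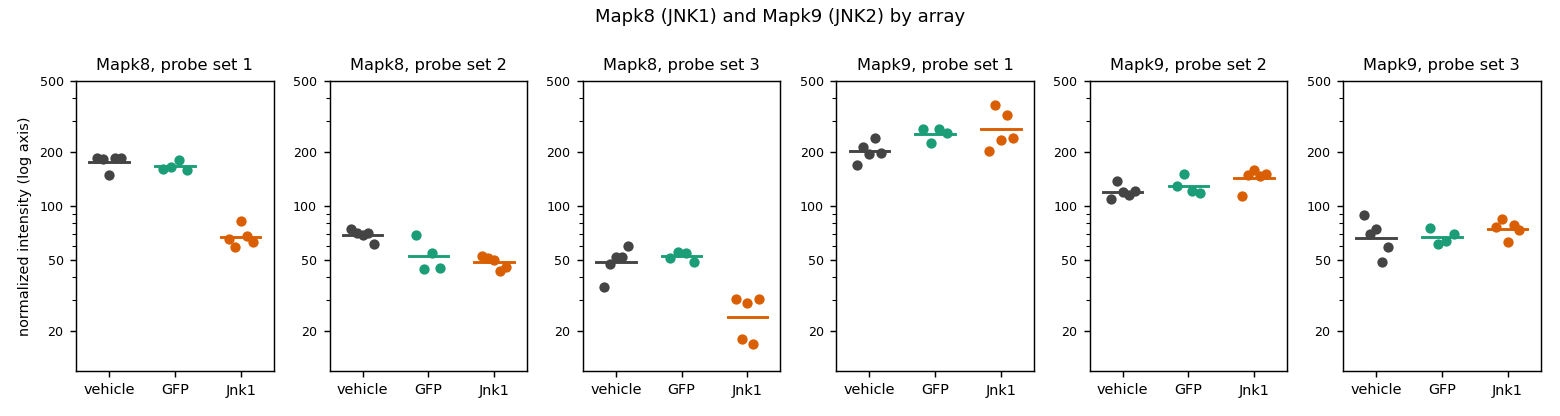
Normalized intensity (log axis) of the 3 kept Mapk8 and 3 kept Mapk9 probe sets on each of the 14 arrays, 1 point per array and a bar at the group's mean log2 intensity. On every Mapk8 probe set the 5 Jnk1 shRNA arrays lie below the 5 vehicle arrays, while the Mapk9 groups overlap.

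The JNK pathway list changed at a share of its genes near that of all genes. Mapk9, which encodes JNK2, read 169, 214, 196, 239.7 and 198 with vehicle and 204, 369, 235, 325 and 241 with the Jnk1 virus on its brightest probe set. The groups overlap, the difference was 0.41 (SE 0.14, adjusted p = 0.034), and its call was lost without vehicle arrays 1, 3 or 5 or Jnk1 shRNA arrays 2 or 4 (adjusted p up to 0.0931). On its dimmer probe sets Mapk9 differed by 0.25 (adjusted p = 0.0889) and 0.16 (adjusted p = 0.423) and was not called. Both Mapk10 (JNK3) probe sets were among the dim ones left out. Of 20 kept genes of the JNK pathway list, 2 rose and 5 fell (2 and 2 in the spike-in fit), with a median of -0.27. Over all genes tested 19.3% rose and 19.3% fell, with a median of -0.02, which is the background for this and every later list. Counts with the GFP virus have a background of 2.18% and 0.623%, and those of the Jnk1 against the GFP virus 17.7% and 16.5%. The spike-in fit called fewer probe sets throughout, 21.1% in place of 37.6%, with 1468 higher and 1390 lower. With equal medians 32.8% were called, and as deposited 38.8%. Rises in the JNK pathway list numbered 0 without Jnk1 shRNA arrays 2 or 4, and 1 without vehicle arrays 1, 3 or 5, with 1 array left out at a time here and in what follows. Besides Mapk8, Dusp16, a phosphatase that acts on JNK, fell from 331 to 214 (-0.63, SE 0.12). Map3k5, the stress kinase ASK1 upstream of JNK, fell by 0.58 (SE 0.14). Jund, the most highly expressed uncalled gene of the list, differed by -0.19 (SE 0.11, adjusted p = 0.206, and 0.0309 without vehicle array 2).

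Across the array, 5099 of the kept probe sets were called, which is 37.6%, with 2563 (18.9%) higher and 2536 (18.7%) lower with the Jnk1 virus. Of these, 806 differed by at least 2-fold, 438 upward and 368 downward. The groups of 5 did not overlap for 3764 probe sets (27.7%), of which 3589 were also called. Counted by gene, with each gene read by its brightest probe set, 1547 rose and 1548 fell with the Jnk1 virus, against 175 and 50 with the GFP virus. Both comparisons use the same vehicle arrays, and the spike-in level was lower in the Jnk1 shRNA group alone. The Jnk1 and GFP virus arrays differed from each other at 1418 genes upward and 1323 downward.

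**Figure D2:**
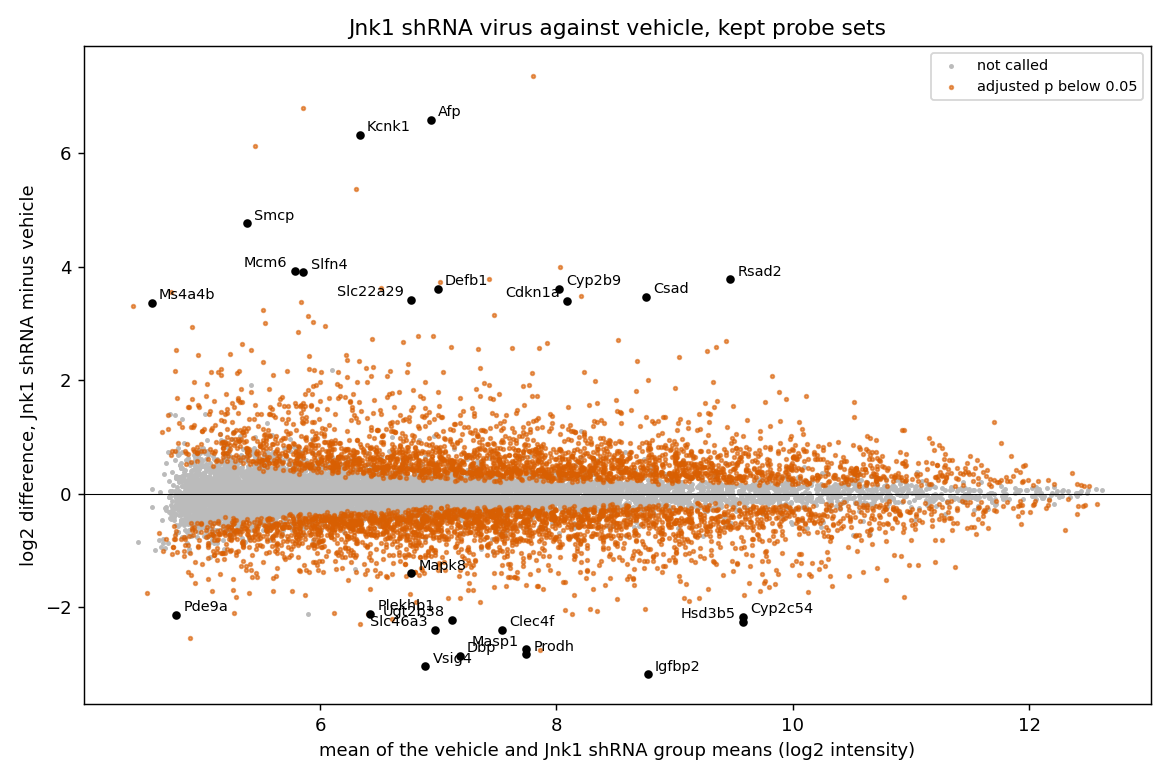
Log2 difference between Jnk1 shRNA and vehicle arrays against the mean log2 intensity of both groups, for the 13576 kept probe sets, with those at an adjusted p under 0.05 in orange. The 12 genes with the largest rise and the 12 with the largest fall are labelled by their brightest probe set, with Mapk8; the unlabelled points as far out are further probe sets of the same genes or probe sets without a single gene symbol.

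The 3 named genes of largest rise were dim in vehicle liver. Afp, alpha-fetoprotein, the main plasma protein of fetal liver, read 6.34, 17.2, 17.2, 17.1 and 9.27 on the vehicle arrays and 788, 1430.3, 1602, 1062 and 1307 on the Jnk1 shRNA arrays. It had a difference of 6.59 (SE 0.27, adjusted p = 1.71e-10), against 0.69 (adjusted p = 0.25) with the GFP virus. Kcnk1, a potassium channel subunit, went from 20.1, 6.23, 9.75, 22 and 2.23 to 784, 682, 994, 718 and 514 (6.32, SE 0.48), and in GFP virus liver its intensities of 47, 86.4, 39.4 and 96.2 lay between the other groups. Smcp, a protein of the sperm mitochondrial capsule, read 9.3, 7.13, 3.68, 12.1 and 11 with vehicle and 166, 176, 335, 222 and 218 with the Jnk1 virus. For all 3 genes the vehicle mean lay under 28.4, so that the size of the fold is uncertain while the groups are far apart. Of the probe sets that moved further than Kcnk1, 1 carried several gene symbols and is not named here.

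Defb1, an antimicrobial beta-defensin, rose from 48.5, 30.5, 41.6, 27.5 and 38.7 to 428, 347, 495, 491 and 488 (3.61, SE 0.16). Csad, the decarboxylase of taurine synthesis, read 129, 98.2, 162, 115 and 157 with vehicle, 139, 211, 334 and 242 with the GFP virus and 1293, 1374, 1582, 1314 and 1718 with the Jnk1 virus (3.47, SE 0.19), an 11.1-fold rise. Slc22a29, of the organic anion transporter family, read 40.3, 29.4, 40, 19.7 and 43.5 against 256, 461, 535, 257 and 354 (3.42, SE 0.23). Each of these genes had the lowest Jnk1 shRNA array several times above the highest vehicle array. Ms4a4b, a membrane protein of T cells, read 12.8, 5.36, 7.35, 22.5 and 2.02 with vehicle 58.4, 84.6, 68.7, 77.9 and 97.6 with the Jnk1 virus and 42.1, 69.9, 50.5 and 33.9 with the GFP virus. The other five of the 12 that rose most, Mcm6, Slfn4, Rsad2, Cyp2b9 and Cdkn1a, are described with their groups.

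The largest falls were in genes well expressed in vehicle liver. Igfbp2, which binds insulin-like growth factors in plasma, fell from 1587, 1419, 1151, 1374 and 1106 to 321, 166, 87.1, 94.2 and 146 (-3.18, SE 0.26), a 9.08-fold drop, while the GFP shRNA arrays read 1261, 1397, 1074 and 1002. Prodh, proline dehydrogenase, fell from 573, 586, 558, 595 and 551 to 129.9, 81.4, 66.8, 80.2 and 60.5. Masp1, a serine protease that starts the lectin pathway of complement, fell from 532, 696, 470.4, 546 and 549.6 to 90.6, 84.9, 82.6, 77.2 and 80.9, a 6.67-fold drop. The other 3 kept probe sets of Masp1 differed less, by -0.14, -0.52 and -0.01, and only the -0.52 was called. The groups of these genes do not overlap by selection, since the largest rises and falls were taken from called genes without overlap.

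Slc46a3, a lysosomal membrane transporter, read 325, 307, 251, 301 and 263 with vehicle and 68.2, 56.7, 46, 51.9 and 52.6 with the Jnk1 virus (-2.40, SE 0.11). Ugt2b38, a glucuronosyltransferase, varied widely among the vehicle arrays, from 113 to 643, and fell to between 48.7 and 81.1. Pde9a, a phosphodiesterase of cyclic GMP, fell from 57.7 to a mean of 13.2 at the dim end of the array. Plekhb1, a pleckstrin homology domain protein, fell from 179 to 41.4 (-2.11, SE 0.18). Vsig4, Clec4f, Dbp, Hsd3b5 and Cyp2c54, the others of the 12 that fell most, are described with their groups.

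Some sensors of viral nucleic acid and most interferon-induced genes rose. Zbp1, a sensor of nucleic acid in the Z form, rose from a mean of 28 to 129 (2.20, SE 0.19, adjusted p = 2.59e-07). Ifih1, the RNA sensor MDA5, rose from 327 to 591 (0.86, SE 0.12), and Dhx58, the related helicase LGP2, rose from 49.8 to 125, though its dimmer probe set differed by -0.14 and was not called. Of 11 kept sensors and adaptors 5 rose and 2 fell (5 and 1 with equal medians); the median was 0.24 with the Jnk1 virus and 0.46 with the GFP virus. Falls in the sensor list numbered 1 without vehicle arrays 3 or 4. Among the 16 kept interferon receptors and transcription factors, 3 rose and 3 fell. Falls in that list numbered 1 without vehicle array 2 or Jnk1 shRNA arrays 2 or 4. Stat2, Irf7 and Usp18 rose, by 0.94, 1.52 and 2.15. Jak1, the kinase at the interferon receptors, fell by 0.44 (SE 0.08), while with the GFP virus it differed by 0.26 (adjusted p = 0.119).

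Of 29 kept interferon-induced antiviral effectors, 19 rose and 2 fell, with a median of 0.78. Rsad2, viperin, which blocks the replication of many viruses, read 295, 170.4, 124, 184 and 227 on the vehicle arrays, 438, 1634, 468 and 677 on the GFP shRNA arrays and 1651, 2417, 3069, 2904 and 3564 on the Jnk1 shRNA arrays. The difference from vehicle was 3.78 (SE 0.32, adjusted p = 1.70e-07), and that from the GFP virus was 1.93 (adjusted p = 3.52e-04). Slfn4, an interferon-induced Schlafen gene of myeloid cells, whose vehicle mean lay at the dim end, read 33.7, 21.1, 19.4, 7.38 and 7.66 with vehicle and 221, 221, 195, 236 and 256 with the Jnk1 virus (3.90, SE 0.33). Ifit1, which binds foreign RNA caps, rose from 159, 74.6, 51.5, 76 and 74.4 to 414, 403, 512, 446 and 668 (2.57, SE 0.39), and differed from the GFP virus by 0.42 (adjusted p = 0.461). Lgals3bp and Bst2 (tetherin, which holds budding virions at the cell surface) rose by 1.96 and 1.42, and each was also above the GFP virus, by 1.25 and 0.58.

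Not every interferon-induced gene was higher. Parp9, an ADP-ribosyltransferase family member, read 449.8, 413, 301, 353 and 335 with vehicle and 277, 247, 195, 256 and 268 with the Jnk1 virus (-0.57, SE 0.12, adjusted p = 0.00159), whereas with the GFP virus it read 555, 712, 533 and 634 and had risen by 0.72. Ifitm1, a restriction factor of virus entry, fell from 93 to 65.4 (-0.51, SE 0.14). Ifitm3, the most highly expressed uncalled effector, differed by 0.20 (SE 0.13, adjusted p = 0.256), but its adjusted p was 0.00404 without Jnk1 shRNA array 2. The effectors' median against the GFP virus was 0.17, with 8 higher and 4 lower with the Jnk1 virus.

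The interferon-inducible GTPases, which attack the membranes around intracellular pathogens and answer mainly to interferon gamma, rose less with the Jnk1 virus than with the GFP virus. Of 9 kept members, 8 rose from vehicle with the Jnk1 virus and 9 with the GFP virus, while 8 of them were lower on Jnk1 than on GFP shRNA arrays. Igtp read 616, 267, 281, 306 and 384 with vehicle, 946, 970.4, 1080.3, 967 and 1393 with the Jnk1 virus and 2049, 2626, 2001 and 2456 with the GFP virus. Its differences were 1.59 (SE 0.19, adjusted p = 5.42e-06) from vehicle and -1.10 (adjusted p = 4.67e-04) from the GFP virus, and the 3 groups do not overlap. Gbp6 and Gbp7 rose by 1.30 and 1.16 from vehicle and differed by -1.34 and -0.96 from the GFP virus. Gbp3 rose by 2.14, and its difference from the GFP virus was -0.21 (adjusted p = 0.439). The median of the list was 1.16 for the Jnk1 virus and 2.17 for the GFP virus.

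Promoters of these genes are shown because the members moved together and many hold the same short element. The interferon-stimulated response element, searched as a pair of GAAA blocks with 2 bases between them on either strand, was found within 250 bases before to 50 bases after the start of 14 of 24 effector and GTPase genes that rose (58.3%; 27 rose and 24 had a promoter in the RefSeq table of build GRCm38.p6), against 3.99% of 27025 genes. Of the kept members of the same lists that had not risen, 4 of 7 held it (57.1%). Both shares lay above that of all genes. The promoters of Rsad2 (chr12:26456403-26456702, minus strand), Ifit1 (chr19:34640639-34640938, plus strand) and Gbp3 (chr3:142559794-142560093, plus strand) are printed 5′ to 3′ in the direction of the gene with the matches in capitals, which begin 120 bases before the start in Rsad2 and 104 and 85 bases before it in Ifit1. In Gbp3 matches that overlap begin 45 and 39 bases before the start. A match is a description of the letters and shows no binding.

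Rsad2: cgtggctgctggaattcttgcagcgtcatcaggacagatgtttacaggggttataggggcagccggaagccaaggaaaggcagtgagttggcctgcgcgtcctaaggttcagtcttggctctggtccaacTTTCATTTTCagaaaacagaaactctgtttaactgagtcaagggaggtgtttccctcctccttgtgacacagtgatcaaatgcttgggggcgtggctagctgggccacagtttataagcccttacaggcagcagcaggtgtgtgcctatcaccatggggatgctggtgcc
Ifit1: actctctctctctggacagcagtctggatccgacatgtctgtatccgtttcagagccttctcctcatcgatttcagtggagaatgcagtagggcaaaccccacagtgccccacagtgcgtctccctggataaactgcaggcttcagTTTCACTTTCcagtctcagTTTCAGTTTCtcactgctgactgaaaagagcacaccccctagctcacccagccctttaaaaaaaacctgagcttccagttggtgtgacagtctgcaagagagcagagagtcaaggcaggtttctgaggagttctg
Gbp3: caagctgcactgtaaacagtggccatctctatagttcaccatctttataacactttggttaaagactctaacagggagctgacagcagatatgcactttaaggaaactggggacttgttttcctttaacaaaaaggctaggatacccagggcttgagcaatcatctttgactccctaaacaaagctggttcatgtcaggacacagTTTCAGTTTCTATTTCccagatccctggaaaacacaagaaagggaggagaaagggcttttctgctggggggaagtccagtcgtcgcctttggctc

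Genes of antigen presentation parted by class. Of 12 kept genes of MHC class I and the immunoproteasome, which show peptides to cytotoxic T cells, 9 rose and 0 fell (8 and 1 on the arrays as deposited, 5 and 0 in the spike-in fit), with a median of 0.56. Psme1, an activator of the proteasome, rose by 1.11 (SE 0.10), Psmb8 by 1.06 and the peptide transporter Tap1 by 0.90. Psmb9 and Psmb10 rose by 0.88 and 0.74, and both were lower than with the GFP virus (differences of -0.92 and -0.57). Falls in this list numbered 1 without Jnk1 shRNA array 5. Of the 5 kept MHC class II genes, which serve macrophages, dendritic cells and B cells, 3 fell. H2-Aa read 294, 204, 362, 342 and 306 with vehicle and 117, 124, 162, 104 and 125 with the Jnk1 virus (-1.24, SE 0.16, adjusted p = 1.67e-05), and 453, 465, 301 and 442 with the GFP virus. Cd74, the invariant chain, fell from 284 to 160.4 (-0.82, SE 0.15). All 5 class II genes were lower with the Jnk1 than with the GFP virus, with a median of -1.24.

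**Figure D3:**
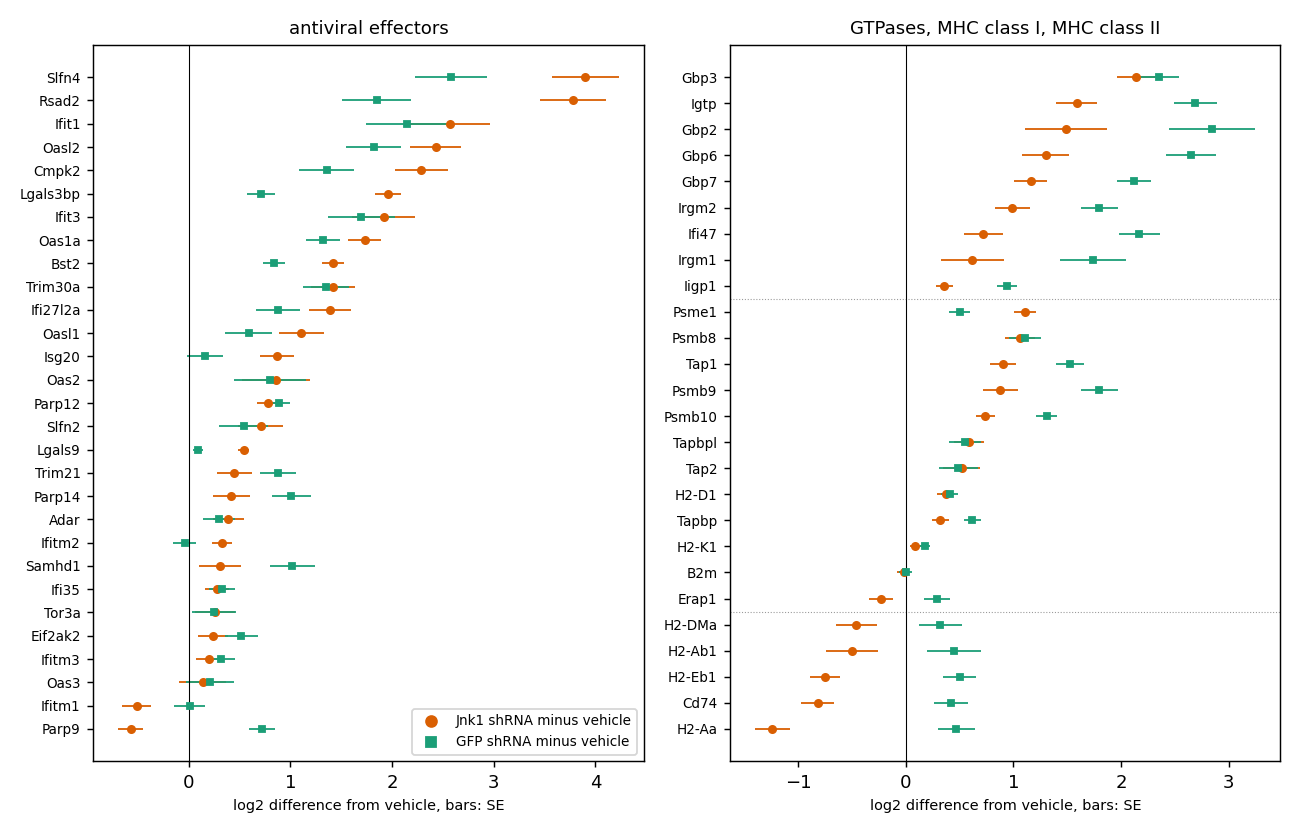
Log2 difference from vehicle with its SE for the kept antiviral effectors (left) and the interferon-inducible GTPases, MHC class I and MHC class II genes (right, from top to bottom), for the Jnk1 virus (orange circles) and the GFP virus (green squares); both use the same 5 vehicle arrays. The GTPases sit further right with the GFP virus, and the 5 MHC class II genes are left of 0 with the Jnk1 virus and right of 0 with the GFP virus.

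Markers of resident macrophages fell with either virus at Clec4f and Vsig4, and with the Jnk1 virus at 4 more. Clec4f, a lectin of Kupffer cells, read 442, 478, 449, 370.4 and 407 with vehicle and 94.5, 85.1, 70.2, 88.9 and 69.4 with the Jnk1 virus (-2.40, SE 0.13, adjusted p = 1.88e-09). Vsig4, a complement receptor of Kupffer cells, read 421, 390.3, 393, 269 and 263 and 55, 41.8, 36.2, 39.4 and 37 (-3.04, SE 0.17). With the GFP virus the means were 108 for Clec4f and 81.5 for Vsig4, differences of -1.98 and -2.06 from vehicle. Mrc1 (mannose receptor) and Folr2 fell by 0.62 and 0.68, and Adgre1 (F4/80) fell by 0.44 (SE 0.13), while none of these genes was called with the GFP virus. Fcgr1 and Fcer1g, subunits of Fc receptors, rose by 0.88 and 0.66. Over the 21 kept macrophage markers 4 rose and 6 fell (1 and 4 in the spike-in fit), with a median of 0.07 (after fitting the spike-in level, -0.12) against 0.46 with the GFP virus. Cd5l, a protein secreted by macrophages, differed by 0.03 (SE 0.10).

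Among markers of T and natural killer cells 5 of 7 kept genes rose and none fell (2 and 0 in the spike-in fit), with a median of 1.10, against 0.66 with the GFP virus. Nkg7, of cytotoxic granules, read 12.6, 7.94, 13, 15.6 and 17.5 with vehicle and 55.5, 64.6, 55.5, 47.8 and 69.1 with the Jnk1 virus (2.17, SE 0.21). Gzma, granzyme A, rose from a mean of 21.9 to 47. Prf1 was not called, and Zap70, uncalled on its brightest probe set (-0.37), fell by 1.06 on a dimmer one; the counts are of brightest probe sets. For this list, with the dimmest 60% left out, 2 of its genes remained, with a median of 0.48. Most genes of the list, 16 of 23, were not kept, Nkg7, Gzma, Gzmb and Thy1 had vehicle means under 28.4, and the part of such cells in other results was not tested. Members so dim in vehicle liver could pass the filter through the virus groups. Falls in the T and natural killer cell list numbered 1 without GFP shRNA array 2 or Jnk1 shRNA arrays 3 or 5. Thy1 had an adjusted p of 0.0372, and of up to 0.099 without vehicle arrays 1 or 2 or Jnk1 shRNA arrays 1, 2 or 3. The 4 kept B cell markers held no call (0 and 1 on the arrays as deposited). The 4 kept neutrophil and monocyte markers held no call either (0 and 1 in the spike-in fit), with a median of -0.28, and -0.63 once the spike-in level was fitted. Falls in the B cell list numbered 2 without vehicle array 1. Falls in the neutrophil and monocyte list numbered 1 without vehicle array 3 or GFP shRNA array 2 or Jnk1 shRNA array 1. Of 13 kept chemokine genes 3 rose and 3 fell (2 and 1 in the spike-in fit). The chemokine Ccl5 rose from 22.4 to 70.5 (1.66, SE 0.34). Cxcl10, an interferon-induced chemokine, had means of 202 and 432 and was not called (1.10, SE 0.58, adjusted p = 0.153), but its adjusted p was 0.0489 without vehicle array 3.

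Of 17 kept endothelial markers 0 rose and 10 fell (0 and 3 in the spike-in fit), with a median of -0.39. Stab2, a scavenger receptor of sinusoidal endothelium, fell from 218, 227, 209, 221 and 207 to 129, 125, 125, 103 and 136 (-0.81, SE 0.09, adjusted p = 1.96e-06). Clec4g, a lectin of the same cells, fell by 0.59 (SE 0.08), while Lyve1 differed by -0.02 (SE 0.14). With the GFP virus 1 of these genes fell. Of 15 kept stellate cell and matrix markers 1 rose and 4 fell (2 and 4 on the arrays as deposited, 2 and 3 with equal medians). Rises in the stellate list numbered 2 without vehicle array 2 or GFP shRNA arrays 2 or 5 or Jnk1 shRNA array 1. Reln, which stellate cells secrete, fell from 505 to 242 (-1.06, SE 0.08), and Vim (vimentin) rose by 0.65 (SE 0.18). Both kept erythroid genes fell: Alas2, the heme synthesis enzyme of red cell precursors, read 518, 536, 543, 513 and 617 with vehicle and 182, 130.1, 109, 151 and 105 with the Jnk1 virus, and differed from vehicle by -0.02 with the GFP virus. Of 16 kept genes of heme and iron 2 rose and 3 fell (1 and 2 in the spike-in fit). Falls in the heme and iron list numbered 5 without Jnk1 shRNA array 1. No cholangiocyte marker was bright enough to be kept.

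**Figure D4:**
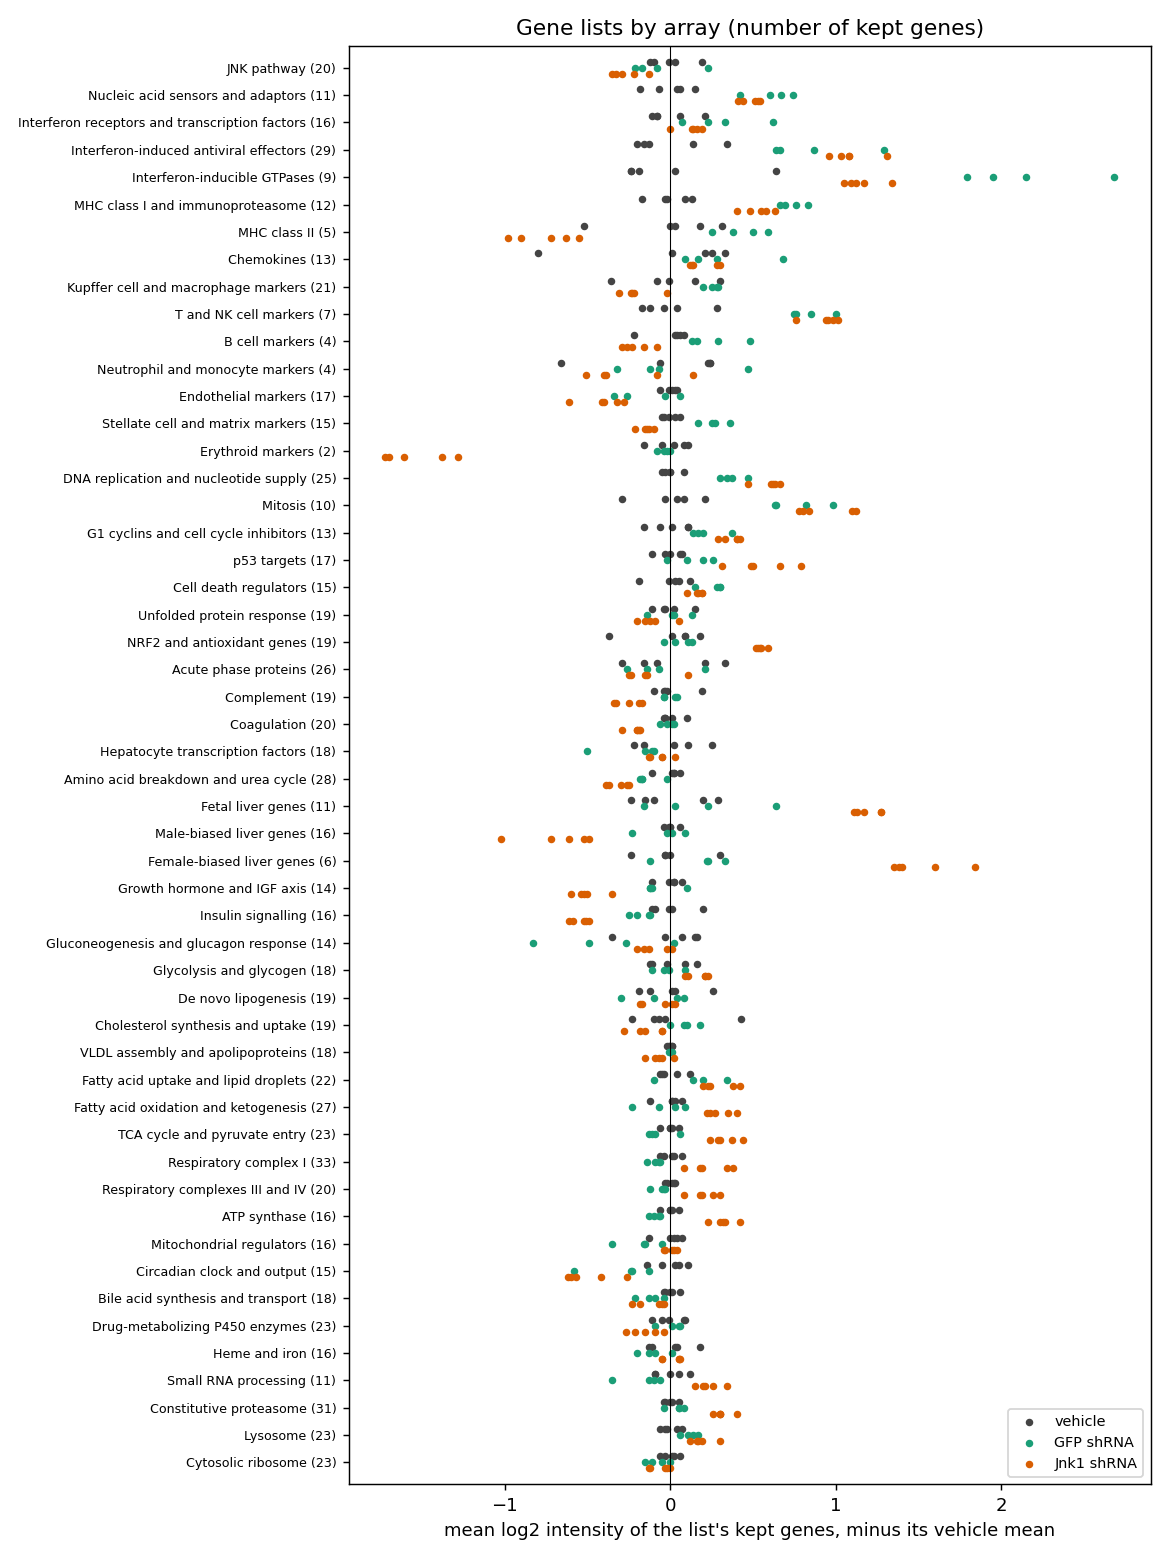
For each gene list with at least 2 kept genes, the mean log2 intensity of those genes on each array minus its mean over the vehicle arrays; each point is 1 array. Jnk1 shRNA arrays stand farthest to the right for the female-biased genes (1.35 to 1.84) and farthest to the left for the 2 erythroid genes (-1.72 to -1.28), and the GTPases are the list where GFP shRNA arrays stand farthest to the right (1.79 to 2.68).

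Of 25 kept genes of DNA replication and nucleotide supply 12 rose and 1 fell, with a median of 0.45. Falls in the replication list numbered 2 without vehicle arrays 3 or 5 or GFP shRNA array 2 or Jnk1 shRNA array 2. Mcm6, a subunit of the replicative helicase, read 9.13, 27.1, 31.2, 16.9 and 4.33 on the vehicle arrays, 82.5, 93.6, 84.8 and 105 on the GFP shRNA arrays and 191, 200.0, 218, 227 and 244 on the Jnk1 shRNA arrays (3.93, SE 0.39, adjusted p = 1.00e-06), with the vehicle mean at the dim end and no overlap among the 3 groups. Mcm2 and Mcm4 rose by 1.41 and 1.36, and the ribonucleotide reductase genes Rrm1 and Rrm2 by 1.26 and 1.67. Mcm10, a DNA replication factor and the gene that fell, read 953, 1325, 986, 1229 and 1119 with vehicle and 514, 414, 291, 401 and 480.2 with the Jnk1 virus (-1.43, SE 0.19). Pcna, the sliding clamp, differed by 0.04 (SE 0.07). Of 22 mitosis genes on the array 10 were kept, and of these 7 rose and none fell (3 and 0 in the spike-in fit). Members dim in vehicle liver could pass the filter through the virus groups. Cdk1, the mitotic kinase, rose from 16 to 88.4 and Top2a from 18.6 to 53.6, both from the dim end of the array. For the mitosis list, with the dimmest 60% left out, 2 of its genes remained, with a median of 0.48. Of 13 kept G1 cyclins and cell cycle inhibitors 4 rose and 2 fell (4 and 1 with equal medians, 1 and 0 in the spike-in fit), with a median of 0.21 (-0.04 once the spike-in level was fitted). For this list, with the dimmest 60% left out, 10 of its genes remained, with a median of -0.15. The medians with the GFP virus were 0.34 for replication and 0.89 for mitosis, against 0.75 for mitosis with the Jnk1 virus.

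E2F elements, searched as TTTCCCGC or TTTGGCGC on either strand, were found in the same promoter window of 4 of 11 replication genes that rose (36.4%: Mcm3, Mcm6, Mcm7 and Cdt1), against 1.8% of 27025 genes. The share among replication genes that had not risen was not counted. Cdt1, which loads the helicase, had an adjusted p of 0.0389 and was not called without any 1 of 7 of the arrays (vehicle arrays 2, 3, 4 or 5 or Jnk1 shRNA arrays 1, 3 or 5), with an adjusted p of up to 0.101. The Mcm6 promoter (chr1:128359656-128359955, minus strand, GRCm38.p6, from RefSeq) held matches beginning 110 and 47 bases before the start, in capitals.

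Mcm6: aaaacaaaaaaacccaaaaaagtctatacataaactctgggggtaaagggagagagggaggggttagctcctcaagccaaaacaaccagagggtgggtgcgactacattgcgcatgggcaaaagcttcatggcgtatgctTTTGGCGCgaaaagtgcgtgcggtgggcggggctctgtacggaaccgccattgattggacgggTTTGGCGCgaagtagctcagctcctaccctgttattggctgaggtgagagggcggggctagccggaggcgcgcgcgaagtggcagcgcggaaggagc

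Targets of p53, the transcription factor of the DNA damage response, changed in both directions. Cdkn1a, the cell cycle inhibitor p21, read 102, 85.9, 86.4, 87.3 and 62.5 with vehicle, 145, 223, 207 and 147 with the GFP virus and 643, 834, 1209, 971 and 862 with the Jnk1 virus. Its difference was 3.40 (SE 0.17, adjusted p = 7.76e-10) from vehicle, a 10.6-fold rise, and 2.32 (adjusted p = 1.83e-07) from the GFP virus, with no overlap among the 3 groups. Ccng1 (cyclin G1) rose from 225, 212, 191, 201 and 199 to 458, 701, 843, 645 and 633 (1.65, SE 0.12). Zmat3 and Sesn2 rose by 2.19 and 1.58. In the other direction Btg2, an antiproliferative gene, fell from 1018 to 287 (-1.83, SE 0.31), Trp53inp1 from 1739 to 647 and Gadd45a from 178 to 83.9. Of 17 kept targets 8 rose and 3 fell (4 and 2 in the spike-in fit), with a median of 0.52, against 1 and 0 with the GFP virus, with a median of -0.01. Mdm2, the p53 ubiquitin ligase, differed by 0.34 (SE 0.15, adjusted p = 0.0894, and 0.047 without Jnk1 shRNA array 2). Myc fell from 178 to 87.8 (-1.02, SE 0.31), and Cflar, an inhibitor of death receptor signalling, fell by 0.49, although one of its dimmer probe sets rose by 0.28. Of 15 kept cell death regulators 4 rose and 1 fell (0 and 1 in the spike-in fit). Rises in the cell death list numbered 1 without Jnk1 shRNA array 3, and 2 without vehicle arrays 1 or 4 or Jnk1 shRNA array 1. Falls in the cell death list numbered 2 without vehicle array 2.

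Several dim genes of fetal liver rose beside Afp. Igf2, the fetal growth factor, with a vehicle mean at the dim end, read 50.3, 11, 12.3, 59.1 and 10.1 with vehicle and 178, 116, 241, 112 and 144 with the Jnk1 virus (2.85, SE 0.54, adjusted p = 5.53e-04). Gpc3 (glypican 3) rose from 28.2 to 81.1 and Peg3, an imprinted gene, from 32.2 to 87.1 (1.44, SE 0.21). None of these 4 genes was called with the GFP virus, where they differed from vehicle by between -0.07 and 0.69, and the difference between the viruses was called for each. Krt18, a keratin of simple epithelia also placed in the list, fell from 1415 to 877. Of the 11 kept genes 6 rose and 2 fell (5 and 0 in the spike-in fit). Members dim in vehicle and GFP virus liver, such as Afp and Igf2, could pass the filter through the Jnk1 shRNA arrays. This favours rises in the count and in the median. The list's median was 0.71, but with the dimmest 60% left out, 3 of its genes remained, with a median of -0.61. Falls in the fetal liver list numbered 1 without vehicle array 1.

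Most kept male-biased liver genes fell and most kept female-biased ones rose. Of 13 female-biased genes on the array only 6 passed the filter. Of 16 kept male-biased genes 2 rose and 10 fell (1 and 12 on the arrays as deposited, 1 and 10 with equal medians), with a median of -0.48, and of 6 kept female-biased genes 4 rose and none fell, with a median of 1.44. Cyp2b9, a P450 enzyme, read 97.7, 104, 109, 27.5 and 73.2 with vehicle and 960.3, 1285, 1319, 562 and 673 with the Jnk1 virus (3.61, SE 0.35, adjusted p = 7.41e-07), and 101, 50.4, 89.2 and 105 with the GFP virus. Cyp17a1, of steroid synthesis, rose from 99.1 to 336 (1.76, SE 0.25). Hsd3b5, a male-specific steroid dehydrogenase, read 1335, 1826, 1856, 1796 and 1579 with vehicle and 677, 359, 109, 518 and 376 with the Jnk1 virus (-2.26, SE 0.33). Mup5, a major urinary protein, fell by 1.63 (SE 0.15) and Ugt2b1 by 1.07. Cyp4a12a, a male-biased fatty acid hydroxylase, rose by 0.99 (SE 0.19). These genes follow growth hormone, and of 14 genes of the growth hormone and IGF axis 1 rose and 6 fell. Cish, a growth hormone target that restrains its receptor, fell from 753, 637, 775, 834 and 730.1 to 307, 280.1, 309, 366 and 400.3 (-1.17, SE 0.11). Igf1 fell by 0.42 (SE 0.07) on its brightest probe set and differed by -0.12, not called, on another. The receptor Ghr fell by 0.31 (SE 0.07), and Bcl6, a repressor of female-biased genes, by 1.35 (SE 0.28). Socs2, another growth hormone target, differed by 0.11 (SE 0.16).

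**Figure D5:**
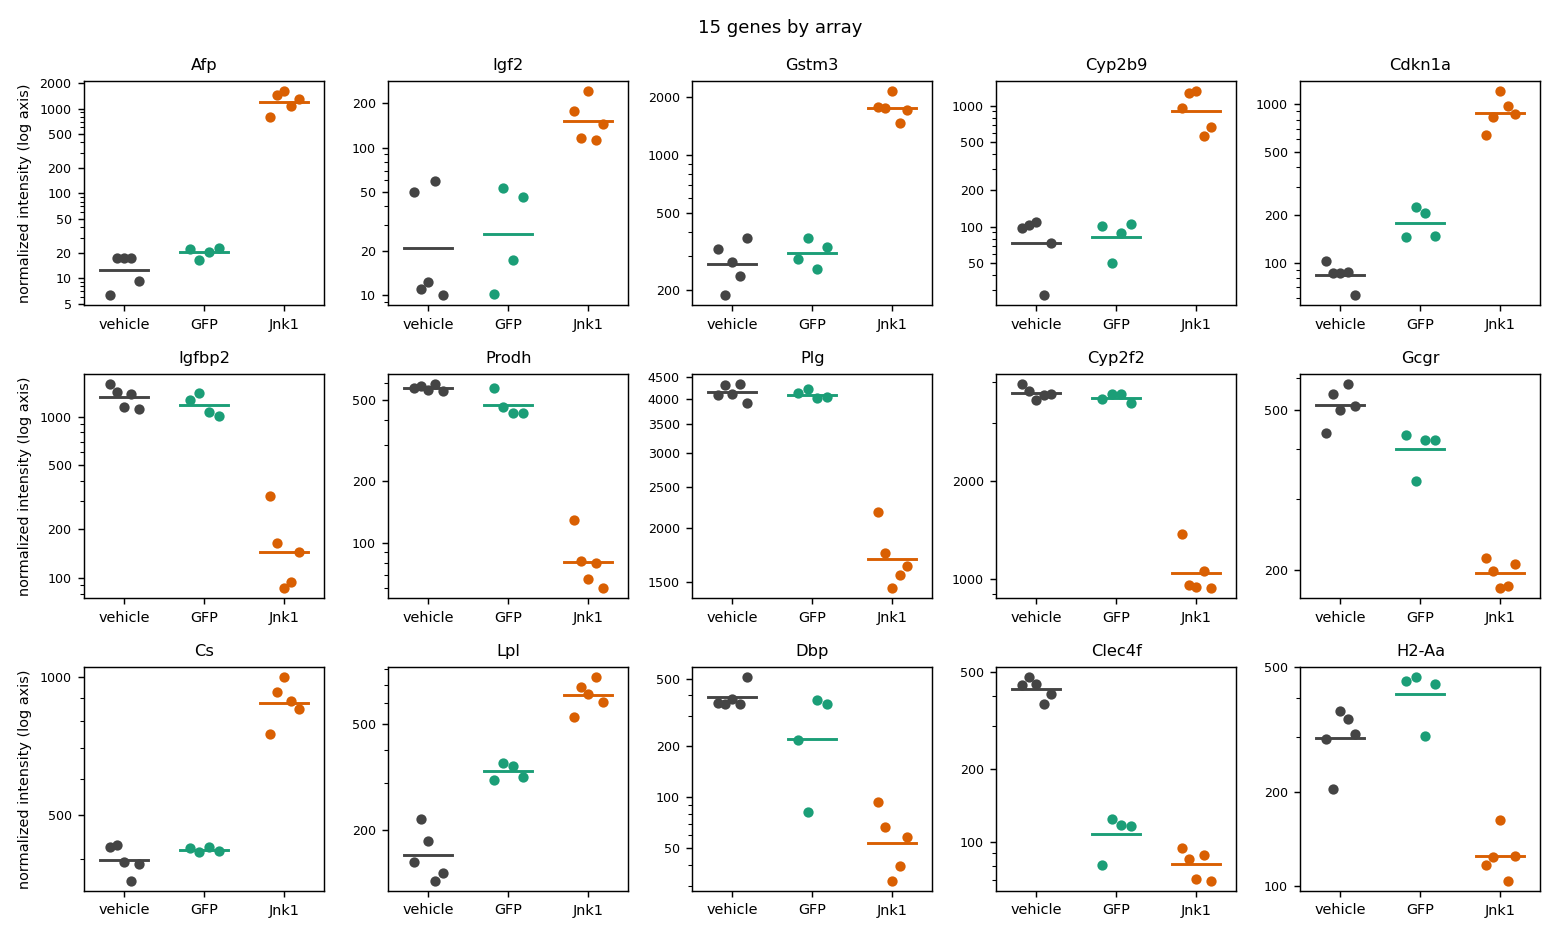
Normalized intensity (log axis, a scale of its own in each panel) of 15 genes on each array, 1 point per array and a bar at the group's mean log2 intensity. In each panel the 5 Jnk1 shRNA arrays lie apart from the 5 vehicle arrays; GFP shRNA arrays lie with vehicle for Igf2, Gstm3, Cyp2b9, Plg, Cyp2f2 and Cs, and near the Jnk1 shRNA arrays for Clec4f.

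Several hepatocyte transcription factors and most genes of amino acid breakdown fell. Hnf4a, a central regulator of hepatocyte genes, fell from 1603, 1831, 1872, 1760.1 and 1737 to 1238, 1172, 1139.5, 1146 and 1178 (-0.58, SE 0.07, adjusted p = 3.62e-06); of its other 3 probe sets 1, at 0.04, was not called. Nr1i3, the drug-sensing receptor CAR, fell from 275 to 76.8 (-1.84, SE 0.16), and Nr0b2, the bile acid-induced repressor SHP, rose from 47.4 to 323 (2.77, SE 0.45). Of 18 kept factors 3 rose and 6 fell (1 and 4 in the spike-in fit). Of 28 kept genes of amino acid breakdown and the urea cycle 3 rose and 19 fell, with a median of -0.33 and -0.15 with the GFP virus. Besides Prodh, Hal (histidine ammonia-lyase) fell from 654 to 231 and Cbs, which starts the conversion of homocysteine to cysteine, from 1054 to 545. Genes of sulfur amino acids parted: Cdo1, which oxidizes cysteine, fell by 0.60 (SE 0.05), while Cth, which releases cysteine, rose by 0.60 (SE 0.06) and Csad rose.

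Secreted plasma proteins changed gene by gene. Saa3, a serum amyloid A made in macrophages and other cells, rose from 96.4 to 608 (2.66, SE 0.36, adjusted p = 2.35e-05), while the hepatocyte form Saa1 fell from 2089.8 to 772 (-1.44, SE 0.40). Lbp, which binds bacterial lipopolysaccharide, rose by 0.64 (SE 0.12) and Orm1 fell by 0.47 (SE 0.09). Plg, plasminogen, read 4091, 4314, 4123, 4341 and 3922 with vehicle and 2183, 1755, 1452, 1554 and 1634 with the Jnk1 virus (-1.29, SE 0.08, adjusted p = 9.55e-09). In the complement list Mbl2 rose by 0.67 (SE 0.07), Mbl1 fell by 0.93 (SE 0.11) and C8b, of the membrane attack complex, by 1.00 (SE 0.14). Genes that rose and fell numbered 5 and 7 of 26 acute phase (3 and 9 with equal medians, 1 and 5 in the spike-in fit), 7 and 8 of 19 complement (3 and 8 with equal medians), and 2 and 8 of 20 coagulation genes (1 and 6 with equal medians, 1 and 5 in the spike-in fit). On the arrays as deposited, without quantile normalization, they numbered 3 and 13, 4 and 10, and 1 and 12. Rises in the acute phase list numbered 3 without vehicle arrays 4 or 5 or Jnk1 shRNA array 4.

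Enzymes of drug and bile acid metabolism moved in both directions. Cyp2f2, a P450 enzyme of periportal hepatocytes, read 3935, 3742, 3520.0, 3639 and 3683 with vehicle and 1379, 963, 949, 1059 and 943 with the Jnk1 virus (-1.82, SE 0.08, adjusted p = 4.06e-10), a 3.53-fold drop. Cyp2c54 fell from 1657, 1384, 1623, 1807 and 1668 to 575, 434, 188, 386 and 333, and Cyp1a2, which handles aromatic amines, fell by 1.45 (SE 0.14). Cyp2c55 rose from 40.3 to 157 (1.96, SE 0.16) and Cyp3a11 by 0.66 (SE 0.06). Cyp2b10, the classical target of CAR, rose from 32.3 to 121, with CAR's own gene Nr1i3 lower. Of 23 kept drug-metabolizing P450 genes 7 rose and 11 fell. In bile acid metabolism 3 of 18 rose and 9 fell (1 and 8 on the arrays as deposited, 1 and 6 with equal medians, 1 and 6 in the spike-in fit). Rises in the bile acid list numbered 1 without Jnk1 shRNA arrays 3 or 5. Without a trend in eBayes they numbered 1. Akr1d1, a reductase of bile acid synthesis, rose by 0.97 (SE 0.07), and Cyp27a1, Baat, which conjugates bile acids, and Abcb11, the bile salt export pump, fell by 0.60, 0.57 and 0.52.

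Antioxidant genes, many of them targets of the stress-responsive factor NRF2, rose in 11 of 19 cases and fell in none (7 and 0 in the spike-in fit), with a median of 0.36. Gstm3, a glutathione transferase, read 326, 188, 278, 234 and 372 with vehicle, 287, 371, 255 and 332 with the GFP virus and 1779.7, 1743, 2140.3, 1462 and 1714 with the Jnk1 virus (2.69, SE 0.16, adjusted p = 4.79e-09). Gsta4 and Gstm1 rose by 1.59 and 0.90, Gpx4, which reduces lipid peroxides, by 0.70, and Gclc, of glutathione synthesis, by 0.73. The GFP virus gave no call in the list and a median of 0.04. On the arrays as deposited 11 rose and 4 fell. Falls in the antioxidant list numbered 2 without Jnk1 shRNA array 2.

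In insulin signalling 0 of 16 genes rose and 7 fell (1 and 3 in the spike-in fit). Irs1, the insulin receptor substrate that JNK can phosphorylate, fell from 259, 235, 241, 370.1 and 322 to 146, 140.3, 124, 117 and 133 (-1.09, SE 0.19, adjusted p = 2.07e-04). Trib1 (a pseudokinase), Foxo3 and Pik3r1, a regulatory subunit of PI3 kinase, fell by 1.91, 1.49 and 0.93. With the GFP virus no gene of the list was called, and the median was -0.15 against -0.35 with the Jnk1 virus. Gcgr, the glucagon receptor, read 439, 547, 501, 580.0 and 513 with vehicle and 214, 199.6, 181, 183 and 207 with the Jnk1 virus (-1.39, SE 0.09). Pck1, a key enzyme of gluconeogenesis, fell by 0.53 (SE 0.11), and G6pc, its last enzyme, differed by 0.38 (SE 0.22, adjusted p = 0.194). Of 14 kept genes of gluconeogenesis and the glucagon response 2 rose and 5 fell (1 and 5 on the arrays as deposited, 1 and 4 with equal medians, 1 and 3 in the spike-in fit). Pdk4, which restrains pyruvate dehydrogenase in fasting, rose from 38.9 to 179.8 (2.21, SE 0.27), and Pdk2 fell from 245 to 92.8. Of 18 kept genes of glycolysis and glycogen 8 rose and 3 fell (7 and 5 on the arrays as deposited, 4 and 2 in the spike-in fit). Among those that rose were Pgam1 (by 0.98) and Aldoa (by 0.64), and among those that fell the glycogen synthase Gys2 (by 0.51).

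Many genes of fat uptake and storage rose, and some of fat synthesis fell. Lpl, lipoprotein lipase, read 152, 221, 182, 129.7 and 138 with vehicle, 310.0, 357, 349 and 318 with the GFP virus and 531, 689, 647, 749 and 603 with the Jnk1 virus (1.98, SE 0.13, adjusted p = 1.63e-08), with no overlap among the 3 groups. Cd36, a fatty acid transporter, rose by 0.99 (SE 0.16) and Cidec, a protein of lipid droplets, from 25.4 to 74.9, with 81.1 for the GFP virus. The related gene Cideb fell by 1.18 (SE 0.09), and the fatty acid transporter Slc27a5 by 0.81 (SE 0.06). Of 22 kept genes of uptake and droplets 11 rose and 6 fell (7 and 6 in the spike-in fit). Of 19 lipogenesis genes 1 rose and 6 fell (1 and 3 in the spike-in fit): malic enzyme, Me1, rose from 609 to 2008, and the desaturase Fads1, the elongase Elovl6 and the regulator Srebf1 fell by 1.06, 0.73 and 0.68. Rises in the lipogenesis list numbered 2 without Jnk1 shRNA array 1. Scd1, the brightest uncalled gene of the list, differed by -0.08 (SE 0.22). In cholesterol synthesis and uptake 1 of 19 rose and 6 fell (1 and 3 in the spike-in fit), with a median of -0.14, and 0.17 once the spike-in level was fitted. Rises in the cholesterol list numbered 2 without Jnk1 shRNA array 2, and 4 without vehicle array 5. Stard4, a sterol carrier, fell by 1.20 (SE 0.15). Mttp, which loads fat onto lipoproteins, rose by 0.78 (SE 0.07) and Apom fell by 0.80 (SE 0.09). Of 18 genes of lipoprotein assembly 3 rose and 5 fell (3 and 9 with equal medians), but 3 and 12 on the arrays as deposited.

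Mitochondrial fat oxidation and the citric acid cycle rose at many genes. Hadhb and Hadha, the subunits of the trifunctional protein, rose by 1.12 (SE 0.07) and 0.83 (SE 0.09), and Crat, carnitine acetyltransferase, from 92.3 to 262. Cpt1a, the gate of fat entry into mitochondria, fell by 0.41 (SE 0.08). Cs, citrate synthase, read 425, 430.0, 394, 359 and 391 with vehicle, 423, 414, 425 and 417 with the GFP virus and 749, 927, 999.5, 885 and 852 with the Jnk1 virus (1.14, SE 0.08, adjusted p = 1.94e-08). Of 27 oxidation genes 16 rose and 5 fell (10 and 3 with equal medians, 12 and 2 in the spike-in fit), and of 23 genes of the cycle 15 rose and 2 fell (10 and 1 in the spike-in fit). The median of the oxidation list was 0.18, and 0.07 on the arrays as deposited, where 13 of its genes rose and 6 fell, and 0.10 with equal medians. In the cycle 13 and 11 rose under these scalings. In the respiratory chain 20 of 33 complex I genes, 11 of 20 genes of complexes III and IV and 12 of 16 ATP synthase genes rose, while 3, 0 and 0 fell. The median differences were small, 0.28, 0.23 and 0.26. Ndufa8 rose by 0.73 (SE 0.07), Cox6b1 by 0.50 (SE 0.06) and Atp5o by 0.47 (SE 0.06). Of 16 kept regulators of mitochondria 2 rose and 2 fell (1 and 2 in the spike-in fit). Rises in the regulator list numbered 1 without vehicle arrays 2, 3, 4 or 5 or GFP shRNA arrays 1, 3 or 5 or Jnk1 shRNA arrays 1, 2, 4 or 5, and 4 without vehicle array 1.

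Counts in the respiratory chain also depended on how the arrays were scaled. On the arrays as deposited 17, 5 and 4 genes rose and 3, 2 and 0 fell, and with arrays brought to the same median 14, 3 and 2 rose. Once the spike-in level was fitted, 8, 5 and 6 rose and 4, 1 and 0 fell. With the GFP virus no gene of these 3 groups rose, and the medians were -0.10, -0.06 and -0.07. Atpif1, the inhibitor of ATP synthase, had the largest rise among them, from 88, 87.6, 78.5, 97.6 and 99 to 281, 278, 343, 304 and 282 (1.72, SE 0.18).

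Most constitutive proteasome genes rose, and genes of endoplasmic reticulum stress moved both ways. Of 31 constitutive proteasome genes 23 rose and none fell (17 and 1 in the spike-in fit), with a median of 0.31, and between 19 and 24 rose under the other scalings of the arrays. Psma6, Psma1 and Psmb7 rose by 0.63, 0.82 and 0.55. Of 19 genes of the unfolded protein response 5 rose and 5 fell (3 and 6 on the arrays as deposited, 2 and 6 with equal medians, 2 and 4 in the spike-in fit): the chaperone Hspa5 (BiP) fell by 0.52 (SE 0.11), Herpud1 by 0.81 and Atf4 by 0.59, and Creld2 rose by 0.92 (SE 0.22). Falls in the proteasome list numbered 1 without Jnk1 shRNA array 2. Rises in the unfolded protein list numbered 3 without Jnk1 shRNA arrays 2 or 5. Of 23 lysosomal genes 9 rose and 4 fell (6 and 2 in the spike-in fit), with Gla, alpha-galactosidase, up from 35.4 to 104 and the cholesterol exporter Npc1 down by 0.77. Of 23 ribosomal protein genes 2 rose and 3 fell (0 and 4 on the arrays as deposited, 0 and 2 with equal medians, 0 and 1 in the spike-in fit). Rises in the ribosome list numbered 1 without vehicle arrays 1 or 3, and 4 without vehicle array 2.

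Output genes of the circadian clock fell and the clock factor Arntl rose. Dbp, a clock output factor, read 361, 357, 379, 356 and 512 with vehicle, 218, 81.7, 376 and 353 with the GFP virus and 94.3, 66.5, 32.2, 39.1 and 58.4 with the Jnk1 virus (-2.85, SE 0.35, adjusted p = 1.02e-05). Nr1d2 (Rev-erb beta), Tef and Per3 fell by 1.16, 1.18 and 1.18. Arntl (Bmal1), the positive factor of the clock, rose from 30.2 to 88.4 (1.55, SE 0.28) and Cry1 from 30.9 to 68.2. Of 15 kept genes 2 rose and 6 fell, and none was called with the GFP virus. The hour at which livers were taken was not stated in the labels, so treatment and hour cannot be told apart.

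Genes that process small RNAs, through which a hairpin acts, held 4 rises and 1 fall among 11 (3 and 0 on the arrays as deposited, 1 and 0 in the spike-in fit). Falls in this list numbered 0 without vehicle arrays 1, 2, 3 or 4 or Jnk1 shRNA arrays 2, 3 or 4, and 2 without GFP shRNA array 2. Tarbp2, a partner of Dicer, read 38.1, 53.4, 28, 48.2 and 27.4 with vehicle, 41.8, 3.22, 28 and 12.1 with the GFP virus and 149.7, 109, 155, 115 and 90.5 with the Jnk1 virus (1.69, SE 0.49, adjusted p = 0.0125). Prkra, another Dicer partner, rose by 0.54 (SE 0.14). Dicer1 itself differed by 0.19 (SE 0.10) on its brightest probe set and rose by 0.74 on a dimmer one.

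Where a gene had several kept probe sets, they did not always repeat each other. Of 2872 such genes, 1253 were called on the brightest probe set; for 829 of these (66.2%) another probe set was called in the same direction, for 397 none was, and for 27 one was called the opposite way. Cxcl12, a chemokine of stromal cells, was among the last: its brightest probe set rose by 0.60 (SE 0.12) and another, of mean intensity 587, fell by 0.55, so its direction is uncertain.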

How the data were processed

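Total RNA of pulverized liver was hybridised to 14 arrays, 5 of vehicle, 5 of Jnk1 shRNA and 4 of GFP shRNA. The deposited values are probe set intensity values on a linear scale, and from the values the arrays had been scaled before deposit: without the top and bottom 2% of probe sets, array means lay between 150.05 and 150.06. The software behind them is not given in the sources used here. Because array medians differed by more than 0.2 on the log2 scale, the 14 arrays were quantile-normalized, floored at the 5th percentile and set to log2. Of 22690 probe sets, 64 controls and then the 40% of lowest mean were left out. The means of the 3 groups were fitted with limma 3.58.1 in R 4.3.3 (eBayes with trend), with Benjamini-Hochberg adjustment over 13576 probe sets. Each gene was read by its probe set of highest mean, and probe sets with several gene symbols (691) or none (1606) were not named. Precision is limited by 5 arrays a group.

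Named were the 3 JNK genes, the 12 largest rises and 12 largest falls among called genes whose groups do not overlap, and, from each of 53 gene lists, up to 5 called members in each direction by smallest p and up to 2 uncalled members of highest mean, with members that define a list's role. Genes that hold the E2F element and the hepatocyte markers were also named. Lists, members and rules were chosen with earlier results of these data known. Quality measures and Mapk8 were also tested by exact two-sided permutation. The fit was checked on simulated data. Alternatives covered scaling, the floor, the filter, the model, a replicate block, the spike-in level and leaving out each array. Same-numbered arrays of different groups did not deviate together (correlations from -0.24 to 0.12), so the numbers were not used as pairs.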

Additional observations from a re-analysis of the deposited data

Results flagged for a closer look

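For each gene named, the highest and the lowest array of the vehicle and of the Jnk1 shRNA group was set against the other 4 by Dixon's ratio, the gap to the nearest array over the range of the group on the log2 scale. A ratio above 0.71 was reached in 18 of 388 sets of 5 arrays, or 4.64%, and chance gives about 1 in 20. Each is given as its ratio with normalized intensities. Among the vehicle arrays 1 stood below the others for Abcb11 (0.838, array 1 at 1210.1, the others from 1482 to 1541), Btg2 (0.732, array 2 at 403, the others from 1078 to 1544) and Cyp2b9 (0.71, array 4 at 27.5, the others from 73.2 to 109). The same held, below the others of vehicle, for Gadd45a (0.944, array 2 at 65.7, the others from 222 to 239), Gzma (0.714, array 3 at 10.9, the others from 22.5 to 30.1) and Mapk8 (0.962, array 3 at 149, the others from 184 to 186). Further such vehicle values, below the rest, were those of Thy1 (0.74, array 2 at 8.89, the others from 21.7 to 29.7) and Zmat3 (0.788, array 2 at 4.16, the others from 18.9 to 28.4). Among the vehicle arrays 1 stood above the others for Cyp2c55 (0.745, array 5 at 52.5, the others from 36.3 to 39.9), Dbp (0.83, array 5 at 512, the others from 356 to 379) and Pik3r1 (0.797, array 1 at 403, the others from 210.3 to 239.9). Among the Jnk1 shRNA arrays 1 stood below the others for Cbs (0.906, array 2 at 458, the others from 562 to 574), Cflar (0.781, array 4 at 144, the others from 185 to 198) and Fcgr1 (0.714, array 3 at 74.9, the others from 82.2 to 85.4). The same held, below the others of Jnk1 shRNA, for G6pc (0.777, array 1 at 1682, the others from 2497 to 2797) and Ifitm3 (0.748, array 2 at 2176, the others from 3417 to 3979.6). Among the Jnk1 shRNA arrays 1 stood above the others for Psma1 (0.833, array 2 at 1354, the others from 1081 to 1123) and Sesn2 (0.738, array 3 at 110.1, the others from 77.4 to 84.9). Mapk8 had its low vehicle array, number 3, still above every Jnk1 shRNA array.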

How the results depend on the processing

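The counts of probe sets called, called higher and called lower stayed within 1.5 times those reported under every alternative except the spike-in covariate, with 2858 called, 1468 higher and 1390 lower, and 1 probe set per gene, which tests fewer, with 3128 called, 1564 in each direction and 499 at 2-fold or more. Without a filter 1229 changed by at least 2-fold in place of 806, among 22626 tested. Called counts were 5273 on the arrays as deposited and 4459 with equal medians, where 56% were higher against 50.3%. Leaving out 1 array gave 4577 to 5475 calls and a Mapk8 difference of -1.47 to -1.35. On the arrays as deposited Alb, Ahsg and Ttr were reversed, at -0.43, -0.38 and -0.42. Over 867 genes of the lists, 21 were reversed there and 14 with equal medians, at median intensities of 4122 and 4027 against 429 for all list genes kept, so the directions of some of the brightest genes depend on the scaling. In the spike-in fit 3 of 868 were reversed. Of 177 named genes that were called, 172 stayed called without each array, and 148 kept call and direction under every alternative in which they were tested. With a replicate block, although the numbers do not pair the arrays, 4825 probe sets were called, and the Mapk8 difference was -1.40. With its short form the response element was found in 87.5% of the effector and GTPase genes that rose. That form was held by 71.4% of the kept members that had not risen and by 26.7% of all genes. The share of genes with a second probe set in the same direction was 73% with the lowest 60% left out. The cause of these shifts was not tested.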
